A study of Mus musculus with 6 samples.

Results

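Transcripts of 9 genes that sense, fold or clear proteins in the endoplasmic reticulum were followed in mouse CD4+ T cells exposed to tunicamycin. The genes were taken by symbol: the sensors Atf6 and Creb3l2, the chaperones and folding enzymes Calr, Ppib, Dnajb9 and Dnajc3, and the degradation genes Vcp, Herpud2 and Derl3. All 9 had a row among the 13685 rows of the count table, and all 9 passed the filter on low counts. The cells were WT (C57BL/6) non-Treg (CD25-) CD4+ T cells of spleen and mesenteric lymph node. They were cultured for 4 h with tunicamycin at 0.15 µg/mL (3 libraries) or with vehicle (3 libraries, also titled as untreated), and share genotype, tissue and labelled batch. How many mice gave the cells, and their age, is not stated in the sources used here. Libraries of 1 group are labelled as technical replicates, and every p-value below measures the spread between libraries only. In bulk RNA of this kind, fewer cells of a type and less RNA per cell cannot be told apart.

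The endoplasmic reticulum folds secreted and membrane proteins, and many of them receive N-linked glycans as they enter it. Tunicamycin blocks the enzyme that starts these glycans, so that unfolded glycoproteins accumulate, and it is a standard inducer of the unfolded protein response. That response has 3 branches, headed by the membrane proteins IRE1, PERK and ATF6. IRE1 splices the mRNA of the transcription factor XBP1, PERK slows translation and favours ATF4, and ATF6 is cut in the Golgi to release a transcription factor. Their targets include chaperones and the machinery that moves misfolded proteins to the cytosol for degradation.

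Promoter sequences are shown first, because they can hold the letters through which the ATF6 and IRE1 branches are known to reach their targets. The motifs listed below are not a search for targets of the PERK branch. RefSeq windows from 250 bases before to 50 bases after the start site (build GRCm38.p6) were found for 8 of the 9 genes: Creb3l2, Calr, Ppib, Dnajb9, Dnajc3, Vcp, Herpud2 and Derl3. The Dnajb9 window (chr12:44210019-44210318, minus strand) lies wholly inside the gene as GENCODE M21 places it, 44205559 to 44210326. Bases before the GENCODE start of Dnajb9 were therefore not searched. Both strands were searched for the ERSE (CCAAT, then 9 bases of any kind, then CCACG), the ERSE-II (ATTGG, then 1 base of any kind, then CCACG), the UPR element core TGACGTGG, the CRE core TGACGTCA and the 5-base core CCACG. This core lies inside the ERSE and ERSE-II and, on the opposite strand, inside the UPR element core. An ERSE was found in the windows of 3 genes, Calr, Dnajc3 and Derl3, and in 0.119% of all 32851 windows of the same length. The UPR element core was found in the window of 1 gene, Vcp, and in 0.676% of all windows. No ERSE-II (0.0365% of all windows) and no CRE core (1.79%) was found in the 8 windows. The 5-base core occurred in 6 of the 8, those of Creb3l2 and Herpud2 having none, and in 32.8% of all windows. A match describes letters in a window, not a bound site. The stretches below are the motif in capitals with 50 bases on either side, on the strand of the gene, from the 4 windows that hold an ERSE or a UPR element core.
Calr, chr8:84847025-84847143, minus strand, ERSE on the opposite strand at 162 to 144 bases before the start site: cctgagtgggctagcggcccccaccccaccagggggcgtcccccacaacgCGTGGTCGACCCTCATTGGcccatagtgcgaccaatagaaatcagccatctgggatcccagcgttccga
Dnajc3, chr14:118937777-118937895, plus strand, ERSE on the gene's strand at 105 to 87 bases before the start site: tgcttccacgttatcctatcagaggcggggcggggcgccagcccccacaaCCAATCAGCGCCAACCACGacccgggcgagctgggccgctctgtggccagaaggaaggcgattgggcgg
Derl3, chr10:75893192-75893310, plus strand, ERSE on the opposite strand at 156 to 138 bases before the start site: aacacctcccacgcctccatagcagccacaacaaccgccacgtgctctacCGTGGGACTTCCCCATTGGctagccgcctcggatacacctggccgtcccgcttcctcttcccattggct
Vcp, chr4:43000564-43000671, minus strand, UPR element core on the gene's strand at 114 to 107 bases before the start site: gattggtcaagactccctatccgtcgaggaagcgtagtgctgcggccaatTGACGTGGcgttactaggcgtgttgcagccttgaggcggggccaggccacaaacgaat

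Summed over the rows analysed, the vehicle libraries held 7412151 to 9495725 estimated counts and the tunicamycin libraries 10584276 to 11211270. These totals did not overlap between the groups, and the part of depth in the differences below was not tested. The rows carry 319120 to 332870 TPM per library and so are a part of the transcriptome. The T cell label was checked on 6 of 10 listed CD4 T cell markers with a row, among them Cd3d, Cd3e, Cd5, Cd28 and Il7r; Cd4 itself was not analysed here. Their summed level was 2007 to 2226 TPM in vehicle and 2014 to 2176 TPM in tunicamycin. Cd8b1, a CD8 T cell marker, was at 9.47 to 11.9 TPM, and the B cell markers with a row, 2 of 6, summed to 0.66 to 1.14 TPM. Plasma cell markers (6 of 10) were far higher and uneven between libraries of a group. They summed to 60.4 to 430 TPM in vehicle and 53.3 to 454 TPM in tunicamycin. Macrophage markers (4 of 7) summed to 3.98 to 11.7 TPM, and NK cell markers (3 of 6) to 8.23 to 10.6 TPM in vehicle and 9.82 to 14.6 TPM in tunicamycin. Among them Gzma, which encodes granzyme A, was at 2.01, 1.41 and 2.73 TPM in vehicle and at 5.73, 5.74 and 2.32 TPM with the drug, in replicate order (log2 fold change 1.15, edgeR adjusted p = 0.65). Il2ra, which encodes CD25, was at 6.87 to 8.41 TPM in vehicle and 7.74 to 14.05 TPM in tunicamycin (log2 fold change 0.30, edgeR adjusted p = 0.83). Gzma and Cd3e (log2 fold change -0.13, edgeR adjusted p = 0.68) were the markers with an unadjusted p under 0.05 (edgeR), against 6.42% of all genes tested. They were 1 of 2 tested NK cell markers and 1 of 6 tested CD4 T cell markers, with 0 in every other marker list. The part of the other cell types in the results was not tested.

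The 9 genes spanned a 225-fold range of mean TPM, a scale that corrects for transcript length. Ppib was at 205 ± 11.6 TPM and Calr at 202 ± 4.90 TPM (SD, n = 6 libraries), and Ppib was the higher of the pair in 4 of 6 libraries, so their order is not fixed beyond the spread. Vcp followed at 171 ± 8.01 TPM, below Calr in 6 of 6 libraries. Herpud2 was at 64.2 ± 3.02 TPM, Dnajc3 at 31.6 ± 1.52 TPM and Dnajb9 at 25.6 ± 1.99 TPM, each with a range apart from its neighbours. The sensors lay far lower, with Creb3l2 at 4.17 ± 0.75 TPM and Atf6 at 1.92 ± 0.37 TPM. Derl3 was lowest at 0.91 ± 0.44 TPM, and its range overlapped that of Atf6, although Atf6 was the higher in each of the 6 libraries.

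**Figure D1:**
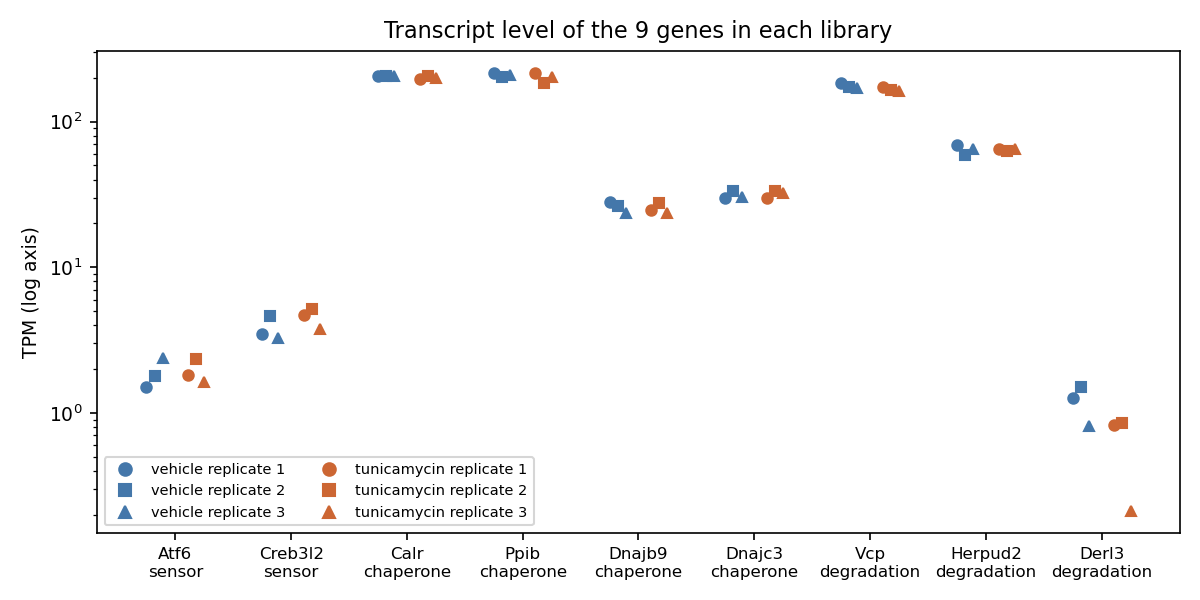
TPM (log axis) of each gene in each library, vehicle in blue and tunicamycin in orange, with the replicate number as the symbol. Groups overlap for each of the 9 genes on this scale, and the lowest Derl3 value, 0.21 TPM, is that of tunicamycin replicate 3.

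The comparison of tunicamycin with vehicle asked how transcripts of this response change under the drug. None of the 9 genes rose or fell past the threshold: 0 of 9 passed an adjusted p of 0.05 in edgeR's quasi-likelihood test, against 0.083% of the 3613 genes tested. DESeq2 and limma on log2(TPM + 1) also called 0 of the 9. The adjusted p ran from 0.63 to 0.99 over the 9 genes (edgeR). At an unadjusted p under 0.05 there was 1 of 9, Calr, against 6.42% of all genes tested. The groups did not overlap in CPM (counts scaled to library size with TMM factors) for 2 of 9, Calr and Vcp, both lower in tunicamycin, against 12.6% of all genes tested. On the TPM scale the groups overlapped for all 9. The median log2 fold change of the 9 was -0.12, with 6 values below 0 and 3 above, beside a median of 0.00 over all genes tested. The median of the 9 was -0.04 in limma on log2(TPM + 1), where that of all genes was 0.05, and -0.10 with effective-length offsets, where that of all genes was -0.0029.

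**Figure D2:**
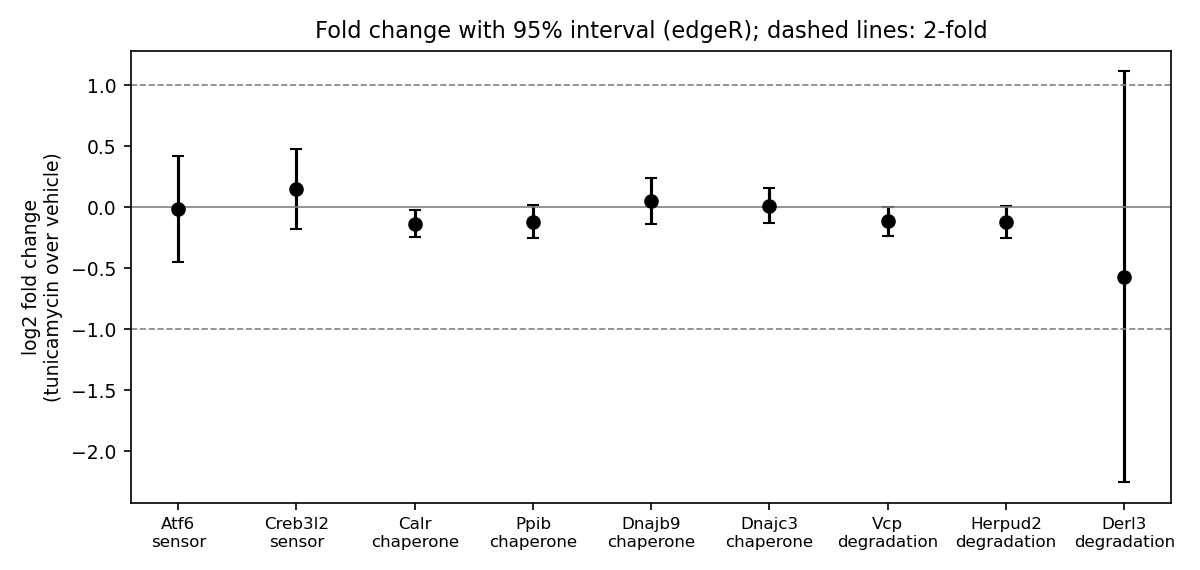
Log2 fold change of tunicamycin over vehicle for each gene (points) with its 95% interval (bars) from the edgeR fit, and dashed lines at a 2-fold rise or fall. The upper bound lies under a 2-fold rise for 8 of 9 genes, the exception being Derl3.

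Atf6 encodes the membrane-bound sensor that gives its branch its name (chromosome 1, 170704674 to 170867771 on GRCm38, minus strand). It was at 30.0, 36.9 and 49.8 CPM in the vehicle libraries and at 36.9, 46.0 and 32.9 CPM in the tunicamycin libraries (here and below in the order of replicates 1 to 3). The highest library was a vehicle one and the groups overlapped throughout. The difference was near 0 (log2 fold change -0.01, SE 0.20, edgeR adjusted p = 0.99), and the interval reached from a 1.37-fold fall to a 1.34-fold rise. Leaving out vehicle replicate 3, the highest library, moved the log2 fold change to 0.21, and leaving out vehicle replicate 1, the lowest, moved it to -0.17.

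Creb3l2 encodes a bZIP transcription factor of the same family as ATF6, anchored in the same membrane and released by proteolysis (chromosome 6, 37327255 to 37442146, minus strand). It was at 81.6, 111 and 76.7 CPM in vehicle and at 98.3, 114 and 86.3 CPM in tunicamycin. The replicates numbered 2 were the highest of both groups, and vehicle replicate 2 lay above tunicamycin replicates 1 and 3. Creb3l2 had the largest value above 0 among the 9 genes (log2 fold change 0.15, SE 0.15, edgeR adjusted p = 0.94). Without vehicle replicate 2 it was 0.33 (edgeR adjusted p = 0.50), and over the 15 alternatives it stayed between 0.05 and 0.33. The interval with all libraries allows a rise of up to 1.39-fold.

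Calr encodes calreticulin, a calcium-binding lectin that holds glycoproteins during folding (chromosome 8, 84841850 to 84846934, minus strand). It was at 1600.5, 1617.5 and 1662 CPM with vehicle and at 1444, 1506 and 1492.5 CPM with tunicamycin. The highest tunicamycin library lay below the lowest vehicle library. The fitted difference was -8.98% (95% interval -15.7% to -1.73%; log2 fold change -0.14, SE 0.05) and did not pass the adjustment over all genes (edgeR adjusted p = 0.63). In TPM the vehicle mean was 205 ± 1.28 and the tunicamycin mean 199.8 ± 6.19 (SD, n = 3 each), and the groups overlapped. The value stayed below 0 in all 15 alternatives, between -0.15 and -0.04 on the log2 scale.

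Ppib encodes cyclophilin B, a proline isomerase of the secretory pathway (chromosome 9, 66060222 to 66066623, plus strand). It was at 678, 654 and 678 CPM in vehicle and at 658, 567 and 625 CPM in tunicamycin. Tunicamycin replicate 2 was the lowest, and tunicamycin replicate 1 lay within the vehicle range. Ppib did not pass (log2 fold change -0.12, SE 0.06, edgeR adjusted p = 0.84). A rise above 1.01-fold lies outside its interval.

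Dnajb9 encodes an ER co-chaperone of the HSP70 protein BiP and is a well-known target of spliced XBP1 (chromosome 12, 44205559 to 44210326, minus strand). It was at 107, 111 and 121 CPM in vehicle and at 119, 119 and 113 CPM in tunicamycin. All 3 tunicamycin libraries lay inside the vehicle range. The estimate (log2 fold change 0.05, SE 0.09, edgeR adjusted p = 0.97) had an upper bound of 1.18-fold. In TPM the libraries stood at 28.2, 26.4 and 23.5 in vehicle and at 24.5, 27.4 and 23.7 in tunicamycin, so the mean was lower under tunicamycin on that scale (26.0 ± 2.35 against 25.2 ± 1.96, SD, n = 3 each). The log2 fold change of Dnajb9 was -0.04 in limma on log2(TPM + 1) and -0.10 in edgeR with effective-length offsets.

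The ratio of count to TPM, which follows the transcript length used for a gene, differed between libraries for Dnajb9. The log2 deviation of this ratio from the gene's mean was -0.22, -0.15 and 0.13 in vehicle and 0.15, -0.01 and 0.11 in tunicamycin. Vehicle replicate 3 lay between tunicamycin replicates 1 and 3, so the groups overlapped. Derl3 showed a wider spread, from -0.47 in vehicle replicate 1 to 0.40 in vehicle replicate 3. For the other 7 genes the deviation stayed within 0.085 in every library. In GENCODE M21 Dnajb9 has 2 transcripts, both coding, and Derl3 has 2 coding among 8 transcripts. Each of the other 7 has 1 coding transcript, among 4 transcripts for Calr and 5 for Vcp. The annotation behind the TPM values is not stated, and a link of these tallies to the deviations was not tested.

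Dnajc3 encodes another BiP co-chaperone, which also inhibits PERK (chromosome 14, 118937976 to 118981697, plus strand). It was at 341, 387 and 364 CPM in vehicle and at 349, 374 and 377 CPM in tunicamycin. The tunicamycin libraries lay inside the vehicle range. The estimate was close to 0 (log2 fold change 0.01, SE 0.07, edgeR adjusted p = 0.99). Its interval, from -0.13 to 0.15, allows a rise of up to 1.11-fold for a gene whose window carries the ERSE printed above.

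Vcp encodes the AAA ATPase that pulls ubiquitinated proteins out of the ER membrane (chromosome 4, 42979963 to 43000507, minus strand). Vehicle libraries stood at 1821, 1732 and 1773 CPM and tunicamycin libraries at 1709.5, 1570.3 and 1632 CPM. As for Calr, no tunicamycin library reached the lowest vehicle library. The difference was -7.77% (95% interval -15.1% to 0.14%; log2 fold change -0.12, SE 0.05) and did not pass (edgeR adjusted p = 0.79). In TPM the values were 185, 173 and 171 against 173, 165 and 162, and the groups overlapped.

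Herpud2 encodes a membrane protein with a ubiquitin-like domain, related to the ER stress protein HERP (chromosome 9, 25108132 to 25151820, minus strand). It was at 532, 479 and 528 CPM in vehicle and at 480, 460 and 474 CPM in tunicamycin. Vehicle replicate 2 lay among the tunicamycin libraries. Herpud2 did not pass (log2 fold change -0.12, SE 0.06, edgeR adjusted p = 0.79). Its value was -0.0031 in limma on log2(TPM + 1), where the vehicle and tunicamycin means were 64.3 ± 4.68 and 64.05 ± 0.93 TPM (SD, n = 3 each).

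Derl3 encodes derlin-3, a membrane protein of the channel through which misfolded proteins leave the ER, and is known for high expression in secretory cells (chromosome 10, 75893413 to 75895941, plus strand). It had 13, 18 and 20 counts in vehicle and 19, 24 and 4 counts in tunicamycin. Tunicamycin replicate 3 stood alone at 0.36 CPM, with an exact Poisson 95% interval of 0.099 to 0.93 that covers counting error only. The other 5 libraries lay between 1.75 and 2.40 CPM. The estimate was imprecise (log2 fold change -0.57, SE 0.77, edgeR adjusted p = 0.95). Its interval runs from a 4.77-fold fall to a 2.16-fold rise, so a 2-fold change in either direction lies within it. The coefficient of variation of its CPM between tunicamycin libraries was 65.4%, where counting error alone would give 25.3%. Without tunicamycin replicate 3 the log2 fold change was -0.12, and without tunicamycin replicate 2 it was -0.96.

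Derl3 is also on the list of plasma cell markers, so the levels of that list are given beside it. The 6 markers with a row, of 10 listed and Derl3 included, summed to 198, 430 and 60.4 TPM in vehicle and to 208, 454 and 53.3 TPM in tunicamycin. Igkc and Igha, the constant regions of immunoglobulin kappa and IgA, gave most of this sum, while Mzb1 was at 0 in 3 libraries and Tnfrsf17 in 5. The sums were lowest in both libraries numbered 3. On the same TPM scale Derl3 was at 1.27, 1.498 and 0.81 in vehicle and at 0.83, 0.85 and 0.21 in tunicamycin, so that it too was lowest in replicate 3 of each group. On the CPM scale vehicle replicate 3, at 2.18, lay between the other vehicle libraries. The part of plasma cells in the Derl3 counts was not tested.

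Derl3 alone among the 9 genes spanned over 1 log2 CPM across the libraries. The 3 genes whose centred log2 CPM came closest to it over the 6 libraries were Hist1h4k, Ccdc96 and Exph5, with root mean square differences of 0.23, 0.28 and 0.30 log2. All 3 shared a low value in tunicamycin replicate 3, with 9, 3 and 9 counts there and 14 to 38 counts in the other libraries. Such likeness between genes of few counts is a description of these 6 libraries.

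The spread between libraries separated the sensors from the abundant genes. The coefficient of variation of CPM between the 3 vehicle libraries was 25.8% for Atf6 and 20.7% for Creb3l2, where counting error alone would give 5.60% and 3.74%. For Calr, Ppib and Vcp it was 1.96%, 2.07% and 2.51%, against 0.87%, 1.36% and 0.84% from counting. The spread exceeded counting error for 8 of 9 genes in vehicle, the exception being Derl3, and for 9 of 9 in tunicamycin. Among tunicamycin libraries Ppib varied more than the other abundant genes, at 7.48%, with replicate 2 low. The SE of the log2 fold changes ran from 0.05 to 0.20 for the 8 genes other than Derl3. For those 8 the upper 95% bound was at most a 1.39-fold rise.

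**Figure D3:**
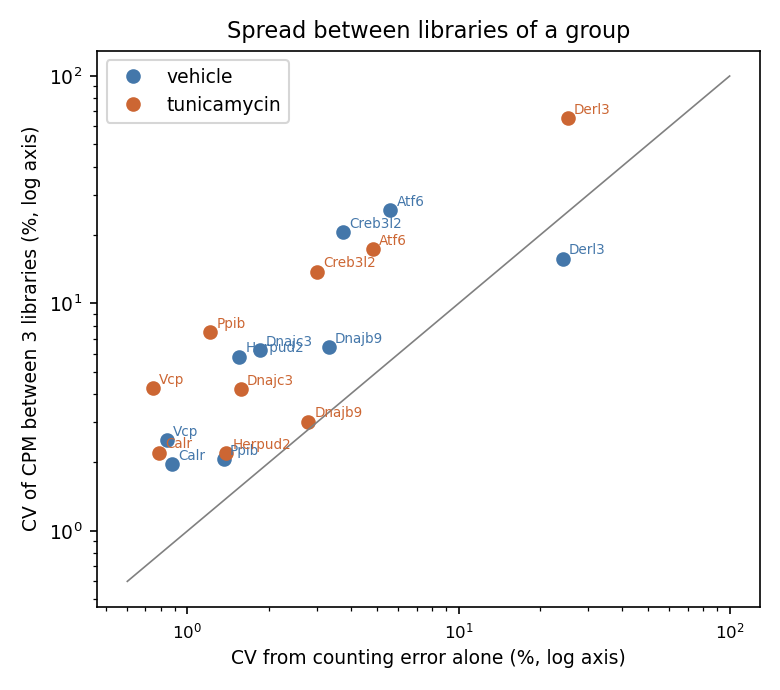
Coefficient of variation of CPM between the 3 libraries of a group (vertical, percent, log axis) against that expected from counting error alone (horizontal, percent, log axis), for each gene in vehicle and tunicamycin. Points above the grey line of equality vary more than counting predicts, and vehicle Derl3 is the one point below it.

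The 9 genes were set beside the other genes of the response, in 7 lists that together name 127 genes. Of these, 42 had a row and 34 were tested, the 9 genes included. The threshold was passed by 0 of 34 in either direction, against 0.083% of all genes tested (edgeR). At an unadjusted p under 0.05 there were 2 of 34, Calr and Pck2, against 6.42% of all genes tested (edgeR). The median log2 fold change of the 34 was -0.04, with 12 values above 0 and 22 below, where 49.9% of all genes tested were below 0. For 31 of the 34 a 2-fold rise lay above the 95% interval. Genes of the lists with no row, such as Hspa5, Xbp1, Ddit3, Ern1, Eif2ak3 and Herpud1, were not analysed here.

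By role, 0 of 4 tested sensors and transcription factors, 0 of 8 chaperones and folding enzymes and 0 of 8 degradation genes passed, against 0.083% of all genes tested. These 3 lists name 17, 34 and 33 genes, so most of each was not tested. Atf4, the transcription factor downstream of PERK, was at 131, 132 and 145 TPM in vehicle and 133, 139 and 145 TPM in tunicamycin, with a log2 fold change of -0.05 (95% interval -0.19 to 0.10). Creld2, a secreted ER stress protein and the non-member of the chaperone and ATF6 lists with the highest level, was at -0.15 (95% interval -0.43 to 0.13). Derl1, a paralogue of Derl3 with far more reads (2903 to 4465 counts), was at -0.03 (95% interval -0.15 to 0.10). The upper bound for Derl1 was a 1.07-fold rise, against 2.16-fold for Derl3.

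By branch, the counts below also stand beside the 0.083% of all genes tested that passed. Tested were 3 of 13 listed targets of ATF6, 7 of 23 of IRE1 and XBP1, 2 of 6 of RNA decay and 10 of 25 of PERK and ATF4. The medians therefore describe the tested genes and not a whole branch, and Dnajc3 counts for both ATF6 and IRE1. The tested targets of ATF6 were Calr, Dnajc3 and Creld2, and 0 of 3 passed, with a median of -0.14. Of the IRE1 and XBP1 targets 0 of 7 passed, with a median of -0.03, and Spcs2, a signal peptidase subunit, was at -0.09 (95% interval -0.22 to 0.04). Of 2 tested targets of the RNA decay carried out by IRE1, 0 passed, with a median of -0.38. Hgsnat, a lysosomal acetyltransferase, was at 0.15 (95% interval -0.07 to 0.37). Bloc1s1, which encodes a subunit of a complex of lysosome biogenesis, was at -0.91 (95% interval -3.11 to 1.28). Its counts were 96, 98 and 4 in vehicle and 50, 54 and 50 in tunicamycin, so vehicle replicate 3 stood far below the other 5 libraries. Of the PERK and ATF4 targets 0 of 10 passed, with a median of 0.0048. Pck2 encodes a mitochondrial enzyme and is known as an ATF4 target. The groups did not overlap in CPM for 12.6% of all genes tested, and that share was not computed in TPM. Pck2 was at 13.5, 17.7 and 16.8 TPM in vehicle and 21.7, 21.1 and 21.4 TPM in tunicamycin, so that its groups did not overlap in TPM. It did not pass (log2 fold change 0.37, SE 0.09, edgeR adjusted p = 0.36), and the call depended on the fit: Pck2 passed when no genes were filtered out and in the fit with a replicate block (edgeR adjusted p = 0.046 and 0.031, of a range of 0.031 to 1.00 over the alternatives).

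**Figure D4:**
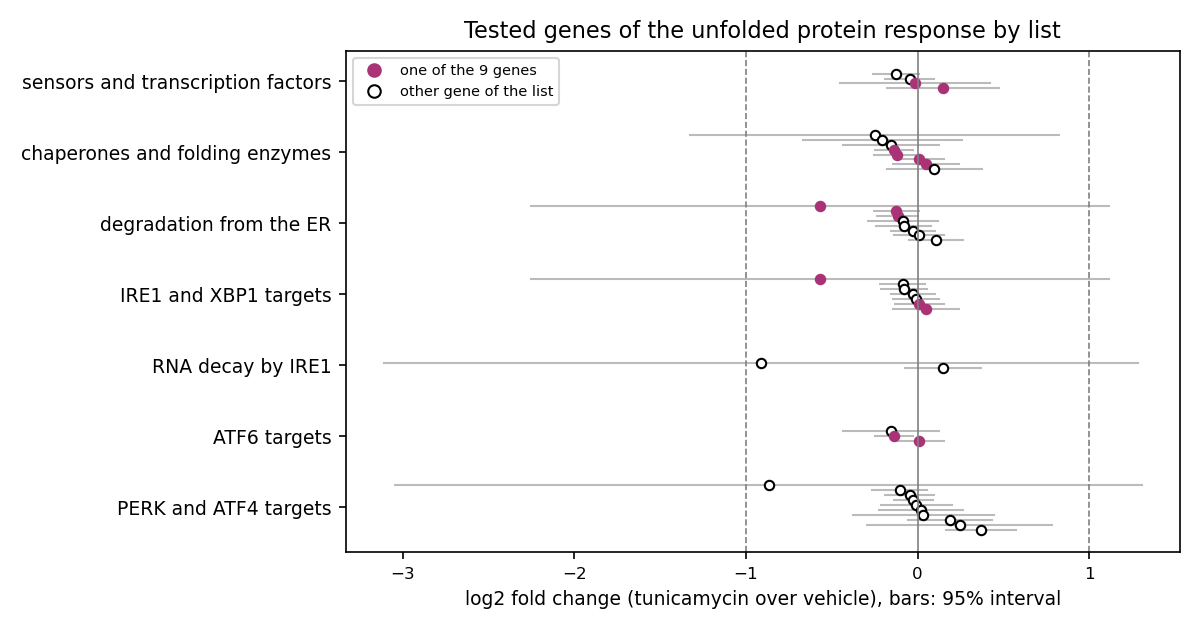
Log2 fold change of tunicamycin over vehicle with its 95% interval (grey bars) for each tested gene of the 7 lists, the 9 genes as filled points and the others as open points. A gene on 2 lists is drawn in each, dashed lines mark a 2-fold change, and 0 of the 34 genes passed the threshold, against 0.083% of all genes tested.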

How the data were processed

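mRNA-seq libraries were made from total RNA, per the labels' protocols. GRCm39 is the build in the submitters' processing notes, which also list Salmon, bcl2fastq and DESeq2 without versions or roles. The transcript annotation is not stated there. The authors deposited estimated counts per gene, partly fractional and not scaled to depth, and TPM values for the same rows. Symbols were matched for 13627 of 13685 identifiers. Positions and promoter windows come from GENCODE M21 and RefSeq on GRCm38, and were not converted.

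Counts were rounded and tested over all 6 libraries with edgeR 4.0.16 (R 4.3.3): filterByExpr (3613 genes), TMM scaling, robust 2-sided quasi-likelihood F test, Benjamini-Hochberg adjustment over all genes and a threshold of 0.05. Each 95% interval is that of the fit. Log2 CPM used a prior count of 2. The fit was run on simulated counts drawn with its own dispersions and with no link between same-numbered libraries. That run therefore cannot show how the fit behaves where such libraries vary together. Alternatives were other scalings, no filter, DESeq2 1.42.0, limma 3.58.1 on log2(TPM + 1) and log2(TPM + 0.1), effective-length offsets, a replicate block and leaving out each library. The text names all 9 genes and, per pathway list, non-members with an unadjusted p under 0.05 and the one with the highest mean TPM. Older symbols were used where the annotation has them. The genes, lists and alternatives were chosen with earlier results of these data known.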

Additional observations from a re-analysis of the deposited data

How the results depend on the processing

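Under all 15 alternatives 0 of the 9 genes passed the threshold, with the lowest adjusted p, 0.12, for Calr with the replicate block (edgeR). Of 135 log2 fold changes of the 9 genes under alternatives, 119 kept their sign and 16 changed it, all for Atf6, Dnajb9 or Dnajc3 and none above 0.21 in size. Atf6 was at 0.032 with no composition factor, 0.025 and 0.0395 in limma on log2(TPM + 1) and log2(TPM + 0.1), and 0.0022 with the replicate block, and ran from -0.17 to 0.21 leaving out 1 library. Dnajb9 was at -0.043 and -0.0444 in limma, and at -0.10 with effective-length offsets with or without the block. Dnajc3 was at -0.032 and, with the block, -0.0311 in the fits with these offsets and ran from -0.0363 to 0.0583 leaving out 1 library. Atf4 was at 0.0308 and 0.031 in limma and ran from -0.0874 to 0.0236 leaving out 1 library, and Derl1 was at 0.0144 with no composition factor and ran from -0.046 to 0.0059. Members with an unadjusted p under 0.05 numbered 3 with DESeq2 size factors, 2 in DESeq2, 4 with the replicate block, 2 with the block and offsets, 0 with no composition factor or in limma, and 0 to 3 leaving out 1 library. The share of all genes at that threshold, 6.42%, was computed for the main fit only. These counts therefore have no share of their own fit to stand beside.

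Over all genes, 2 were called higher and 1 lower. Without the filter 10 and 6 were called, in DESeq2 12 and 11, with DESeq2 size factors 2 and 2, with no composition factor, effective-length offsets or limma on log2(TPM + 0.1) 2 and 0, in limma on log2(TPM + 1) 1 and 0, and leaving out 1 library 1 to 4 and 0 to 1. The replicate block called 14 and 22, and with offsets 3 and 3. Same-numbered libraries deviated together weakly over 3613 genes (correlation 0.037, 0.187 and 0.107), yet each of 6 libraries was closest to its same-numbered partner. For 1912 better covered genes (mean log2 CPM of 5 or more) the correlations were 0.324, 0.116 and 0.269, each over 0.1. The labels do not say that a number pairs libraries, and the main fit was run without pairs. Its p-values therefore leave out any pairing that these values reflect. The calls of both fits were known when this was decided. Derl3 had 4 to 24 counts per library and the widest interval of the 9 genes.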
